A study of Mus musculus with 9 samples.

Results

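A wide 5hmC region is here a stretch of the genome at least 1200 bp long that the authors listed as enriched for 5-hydroxymethylcytosine (5hmC). The regions described below are the autosomal wide regions of the control list that share at least 1 bp with a wide region of the MLL-AF9 list. There were 1270 of them among 51145 autosomal and 51286 control regions in all, and 1279 wide MLL-AF9 regions lay over them. The MLL-AF9 list is the longer one, with 166014 autosomal regions and 166852 in all, which gives any control region more MLL-AF9 regions to meet. The members were thus selected on width and overlap in the 2 lists, so both are given as descriptions.

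The study profiled bone marrow mononuclear cells of B6.SJL mice, a strain that carries the CD45.1 marker. MLL-AF9 cells had received the retroviruses MSCVneo-MLL-AF9 and MSCVpuro, and control cells the empty viruses MSCVneo and MSCVpuro, so both groups carry the MSCVpuro vector. MLL-AF9 joins MLL, a histone methyltransferase, to AF9 in acute leukemia, and here it was carried by a retrovirus rather than the Mll1 locus. 5hmC was measured in 1 library per group, without replicates, and the age and sex of the mice are not in the labels. With 1 library per group no difference between MLL-AF9 and control cells could be tested against spread between replicates. Wilson 95% intervals below cover counting error only.

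5hmC is made from 5-methylcytosine by the TET dioxygenases, which use oxygen and 2-oxoglutarate. In mammalian cells it is known to lie in the bodies of active genes and at enhancers and to be sparse at active CpG island promoters. It can persist as a stable mark or be a step on the way to unmodified cytosine. A region call marks where enriched DNA fragments pile up, so a wide call can be 1 long stretch of the mark or several close patches joined.

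Markers of several marrow cell types differed between RNA of the same 2 groups, in the authors' pooled values (FPKM, with no error of their own). The 6 late granulocyte markers had a summed level of 5157 FPKM in MLL-AF9, against 55783 FPKM in control, and each of the 6 was lower in MLL-AF9. The sums were 33.1 FPKM in MLL-AF9 against 543 FPKM in control for 4 B lymphoid markers, 1.67 against 39.5 FPKM for 3 T lymphoid markers, and 10.7 against 206 FPKM for 4 erythroid markers, each member being lower in MLL-AF9. The leukocyte marker Ptprc stood at 142 FPKM in MLL-AF9, against 257 FPKM in control. The fusion targets Hoxa9, Hoxa10 and Meis1 summed to 160 FPKM in MLL-AF9, against 2.79 FPKM in control. None of these markers was at 0. The part of cell makeup in the region differences below was not tested, and in DNA of mixed cells more cells with the mark and more of the mark per cell cannot be told apart.

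Most wide control regions met 5hmC in the MLL-AF9 library, and under 50% of them met a region that was itself wide. Of 2996 wide autosomal control regions, 1270 (42.4%, interval 40.6 to 44.2) overlapped a wide MLL-AF9 region. A further 1558 overlapped only narrower MLL-AF9 regions, and 168 overlapped none. Seen from the other list, 1279 of 4786 wide MLL-AF9 regions (26.7%, interval 25.5 to 28.0) overlapped a wide control region, 2235 overlapped only narrower control regions and 1272 overlapped none. Over all 166014 autosomal MLL-AF9 regions 2.44% overlapped a wide control region. A control region of any width was met by 12.9% of MLL-AF9 regions under 400 bp and 60.7% of those from 1000 to under 1200 bp. It was met by 69.1% from 1200 to under 1500 bp and 88.2% from 2000 bp upward, so a lack of overlap was less common among wide regions. Over all autosomal control regions 8.54% overlapped a wide MLL-AF9 region, and over those narrower than 1200 bp 6.43% did. These shares use the same measures as the choice of the regions, and a longer region has more room to overlap.

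The share that met a wide MLL-AF9 region was higher in each wider class of control region. It was 2.53% of control regions under 400 bp, 11.7% of those from 800 to under 1000 bp and 19.7% of those from 1000 to under 1200 bp. It was 35.9% (628 of 1751) from 1200 to under 1500 bp, 47.3% (414 of 875) from 1500 to under 2000 bp and 61.6% (228 of 370) from 2000 bp upward. Overlap with an MLL-AF9 region of any width ran over a smaller range, with 73.2% of the narrowest class and 97.3% of the widest. It was 90.3% from 1000 to under 1200 bp and 93.3% from 1200 to under 1500 bp. These classes are of unequal breadth, and the largest rise between neighbours in percentage points was the one across 1200 bp. In equal steps of 100 bp the share was 13.2% from 900 bp, 16.9% from 1000 bp, 23.3% (267 of 1147, interval 20.9 to 25.8) from 1100 bp, 31.6% (243 of 769, 28.4 to 35.0) from 1200 bp, 38.6% from 1300 bp and 40.0% from 1400 bp.

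**Figure D1:**
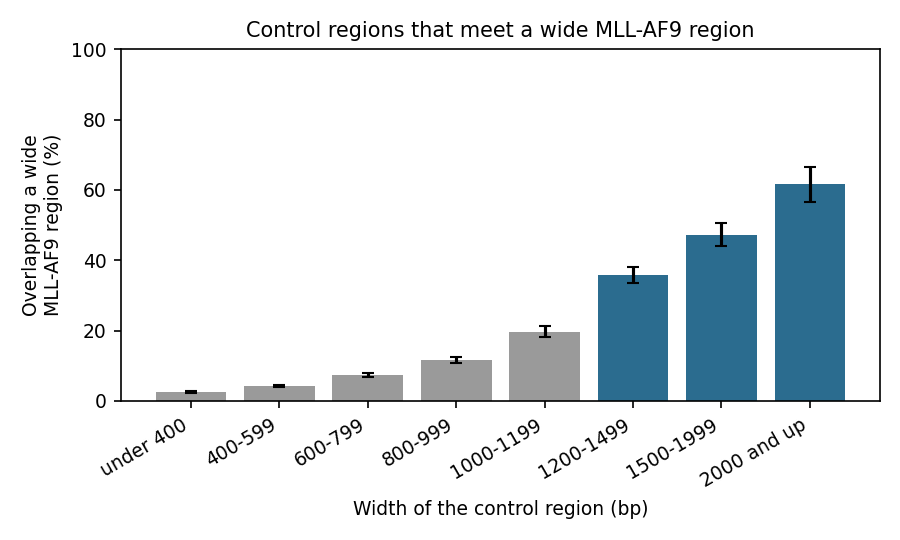
Percent of autosomal control regions (vertical axis) that overlap a wide MLL-AF9 region by at least 1 bp, by width of the control region in bp (horizontal axis); blue bars are the wide classes, whose overlapping regions are the 1270 described here, and error bars are Wilson 95% intervals. The share is 2.53% in the narrowest class and 61.6% in the widest, and it is 19.7% in the last class below 1200 bp and 35.9% in the first class above; the classes are of unequal breadth.

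Of the control regions that met a wide MLL-AF9 region, some of those nearest the minimum were as follows. Just inside lay chr13:37719533-37720732 and chr5:119038884-119040083 (mm9, counted from 1, as all coordinates here), both 1200 bp wide in control, and chr15:76018471-76019671, 1201 bp wide. The chromosome 13 member met wide MLL-AF9 regions of 2266 and 2364 bp, which shared 72 and 938 bp with it. The MLL-AF9 region over the chromosome 5 member was 1913 bp wide and that over the chromosome 15 member 2338 bp, and each covered its control region whole. Just outside, 1 bp under the minimum in control, lay chr2:167805468-167806666, chr5:134711190-134712388 and chr6:121013584-121014782, under MLL-AF9 regions of 1456, 2151 and 1406 bp.

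The wide stretches were of similar length in both libraries, which follows largely from the floor of 1200 bp set for both. Wide regions with only narrower partners in the other list were also alike, with medians of 1399 bp in MLL-AF9 and 1397 bp in control. MLL-AF9 partners had a median width of 1538 bp (25th to 75th percentile 1353 to 1855, highest 4175), and the chosen control regions a median of 1506 bp (1331 to 1818, highest 5673). All autosomal regions had a median of 442 bp in the MLL-AF9 list and 571 bp in the control list. Widths of at least 2000 bp were reached by 234 partners in MLL-AF9 and 228 regions in control, and widths of at least 3000 bp by 27 and 32. The partners cover 2.15 Mb in MLL-AF9 and the control regions 2.12 Mb, of which 1.79 Mb is common to both.

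Nearly every member had a single wide counterpart, which the rule itself favours. Partners are at least 1200 bp wide and do not overlap each other, so a member of the median width, 1506 bp, has little room for a second. Of the 1270 regions, 1238 (97.5%, interval 96.5 to 98.2) overlapped exactly 1 wide MLL-AF9 region, 29 overlapped 2 and 3 overlapped 3. In the other direction 26 wide MLL-AF9 regions spanned 2 control members each. Counting MLL-AF9 regions of any width, 996 members lay under 1, 233 under 2, 35 under 3 and 6 under 4. Members under at least 2 such regions, which include those whose control stretch is broken up in MLL-AF9 cells, made up 21.6%, while 51.3% of the 1558 wide control regions with only narrower partners lay under at least 2. That contrast follows partly from the rule, since a region covered by several short calls seldom meets a wide one.

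The overlap, for which the rule asked only 1 bp, was mostly deep, which the width minimum itself favours. A partner of at least 1200 bp that lies inside a member of the median width, 1506 bp, already covers most of it. Wide MLL-AF9 regions covered a median of 93.8% of a member (25th to 75th percentile 77.5 to 99.5), and control members covered a median of 93.1% of a partner (76.3 to 98.9). At least 50% was covered in 1211 members, at least 90% in 760, and the whole length in 295. Under 10% was covered in 8 members. With narrower MLL-AF9 regions included, the median was 95.3% and the least covered member was still covered for 37.1%. Among the 1558 wide control regions with only narrower partners, MLL-AF9 regions of any width covered a median of 70.0%, and the widest MLL-AF9 region over each had a median width of 798 bp. Both values follow partly from the rule, since all MLL-AF9 regions over this class are narrower than 1200 bp.

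In 1195 pairs each region had 1 wide partner, and these pairs were used to compare positions. The MLL-AF9 region was wider in 618, narrower in 576 and of equal width in 1. The median difference in width, MLL-AF9 minus control, was 8 bp (25th to 75th percentile -174 to 205). The ratio of widths lay within 1.2-fold in 740 pairs (61.9%), reached 1.5 in 93 pairs and was 1/1.5 or less in 72. Because both widths had to reach 1200 bp, a stretch that was narrower than that in either library cannot appear among these pairs. The Spearman correlation of MLL-AF9 and control widths was 0.29 over the 1195 pairs, a description over regions of the same 2 libraries within a truncated range.

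**Figure D2:**
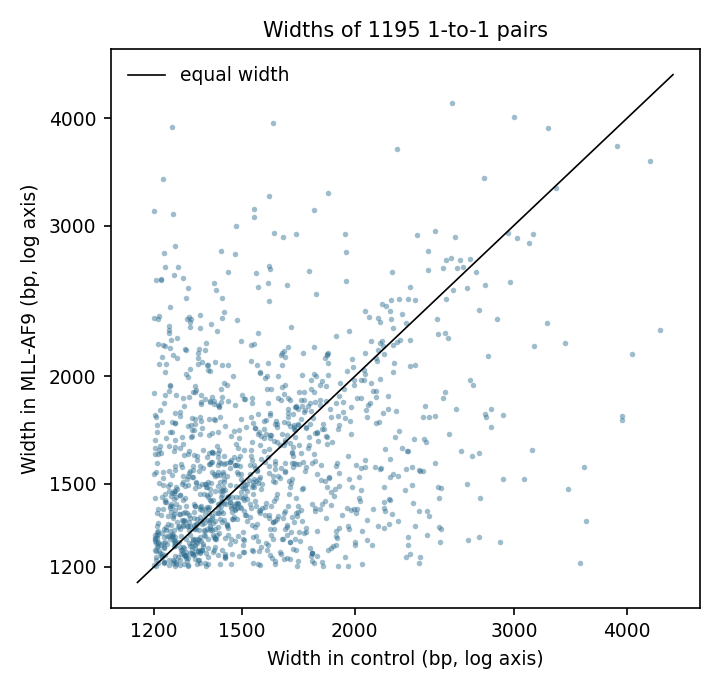
Width in MLL-AF9 (vertical axis, bp, log scale) against width in control (horizontal axis, bp, log scale) for the 1195 pairs in which each region has 1 wide partner; each point is a pair and the line marks equal width. Points lie on both sides of the line, 618 above it and 576 below.

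The ends of the stretches lay a median of just over 100 bp apart. The MLL-AF9 start was within 100 bp of the control start in 550 pairs (46.0%), and the end was within 100 bp in 572 (47.9%). Both ends were within 100 bp in 305 pairs (25.5%, interval 23.1 to 28.1), exactly 1 end was in 512, and neither was in 378. With a tolerance of 50 bp, both ends were matched in 108 pairs (9.04%), exactly 1 end in 475 and neither in 612 (51.2%). No pair had identical coordinates. The median offset of the start was -10 bp and that of the end 1 bp, MLL-AF9 minus control, so the pairs showed little shift to one side as a whole. The absolute offset had a median of 116 bp at the start and 108 bp at the end, with 75th percentiles of 389 and 365 bp. At 500 bp both ends were matched in 853 pairs and neither in 82.

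The regions of a pair overlapped in 3 ways. The MLL-AF9 region contained the control region in 287 pairs and lay inside it in 244, a shared end being allowed in both counts. In the remaining 664 pairs it was offset to one side. Adapter-ligated fragments of about 200 to 350 bp were selected for these libraries per the labels' protocols. That size includes the adapters, so the stretch of genome in 1 fragment is shorter. Offsets below the length of that stretch are within the size of 1 fragment.

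**Figure D3:**
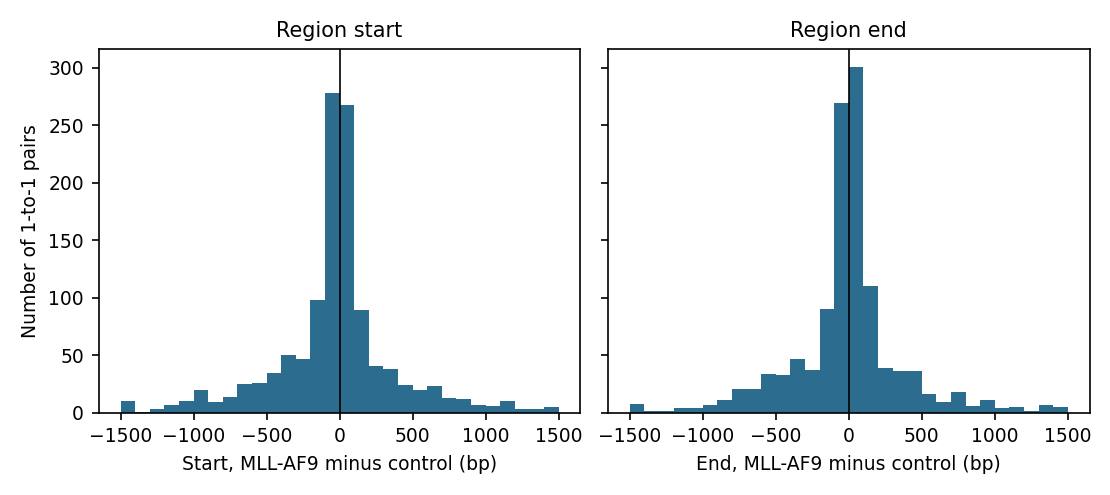
Number of pairs (vertical axis) by the difference in start (left) and end (right) between libraries, MLL-AF9 minus control in bp (horizontal axis), in steps of 100 bp for the 1195 pairs; differences beyond 1500 bp are in the outermost bars. Both histograms peak at 0, with 46.0% of starts and 47.9% of ends within 100 bp, and have long tails to both sides.

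Each member is 1 region in control by the rule, and of the longest common stretches some were also 1 region in MLL-AF9 and some were divided there. The widest member of all, chr13:55102664-55108336, was 1 region of 5673 bp in control with the highest score of all members, 3609. In MLL-AF9 it was met by 3 wide regions of 2206, 1525 and 1441 bp, with scores of 1049, 496 and 1136, and by 1 narrower one. The meaning of the authors' score is not stated, and it is compared here only within a list. The member chr15:63883666-63887854 was 4189 bp wide in control with a score of 397, and 3 wide MLL-AF9 regions of 1942, 1528 and 1297 bp lay over it. Another member with 3 wide partners, chr8:125174062-125176862, was 2801 bp wide in control and met MLL-AF9 regions of 1236, 1238 and 1562 bp.

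Other long members met 2 wide MLL-AF9 regions or stayed whole. At chr13:112579960-112584023, 4064 bp wide in control, MLL-AF9 regions of 1738 and 2268 bp lay side by side. At chr8:123276659-123280540, 3882 bp wide in control, an MLL-AF9 region of 3405 bp covered 86.3%. A second of 1821 bp covered 4.66% at the edge, with only 9.94% of its own length inside the member. The member chr15:78394830-78398732 was continuous in both: the MLL-AF9 region of 3716 bp lay wholly inside the control region of 3903 bp, 112 bp in from its start and 75 bp in from its end. The member chr12:102228204-102232442 was similar, with 3567 bp in MLL-AF9 inside 4239 bp in control. These 6 members share the most bases with wide MLL-AF9 regions, between 3530 and 4019 bp each.

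Members with 2 or more wide partners were long as a group, and a longer member has more room for a second one. The 32 of them had a median control width of 2621 bp (25th to 75th percentile 1957 to 3561), against 1506 bp for all members, and MLL-AF9 regions covered a median of 89.9% of their length. The 26 MLL-AF9 regions over 2 members each had a median width of 2169 bp, against 1538 bp for all partners, and were covered for a median of 96.3%. Regions that met 2 or more wide regions of the other list thus occurred in both directions. An overlap of 1 bp was enough to count, and some second partners only touched an edge, so these counts do not show how many calls were divided.

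High scores marked most members in both lists, with exceptions. The score was in the top 10% of its own list for 979 of 1279 MLL-AF9 partners (76.5%) and for 845 of 1270 control members (66.5%). Score and width were related in each list, with a Spearman correlation of 0.72 over all autosomal MLL-AF9 regions and 0.67 over all control regions, so width and score are not independent. Within the members the correlation was 0.37 over MLL-AF9 partners and 0.35 over control regions. A score below the median of its list was found in 62 MLL-AF9 partners (4.85%) and in 98 control members (7.72%), regions that were wide yet low in score.

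Other wide regions of each list scored only slightly lower. In the MLL-AF9 list the median score percentile was 98.2 for partners, 97.1 for wide regions with only narrower control regions and 97.0 for wide regions with no overlap. In the control list it was 95.8 for members, 95.0 for wide regions with only narrower partners and 94.5 for those with no overlap. Within control widths of 1200 to under 1500 bp the members' share was 32.4% (interval 28.2 to 36.9) in the quartile with the lowest scores, 40.0%, 37.5% and 33.6% (29.3 to 38.1) in the next ones up to the highest, with no order from low to high. From 1500 to under 2000 bp members were 104 of 219, 106 of 219, 98 of 218 and 106 of 219 regions from the lowest quartile to the highest. From 2000 bp upward the share was 54.8% (44.7 to 64.6), 63.0%, 57.6% and 71.0% (61.1 to 79.2), again without a steady order.

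**Figure D4:**
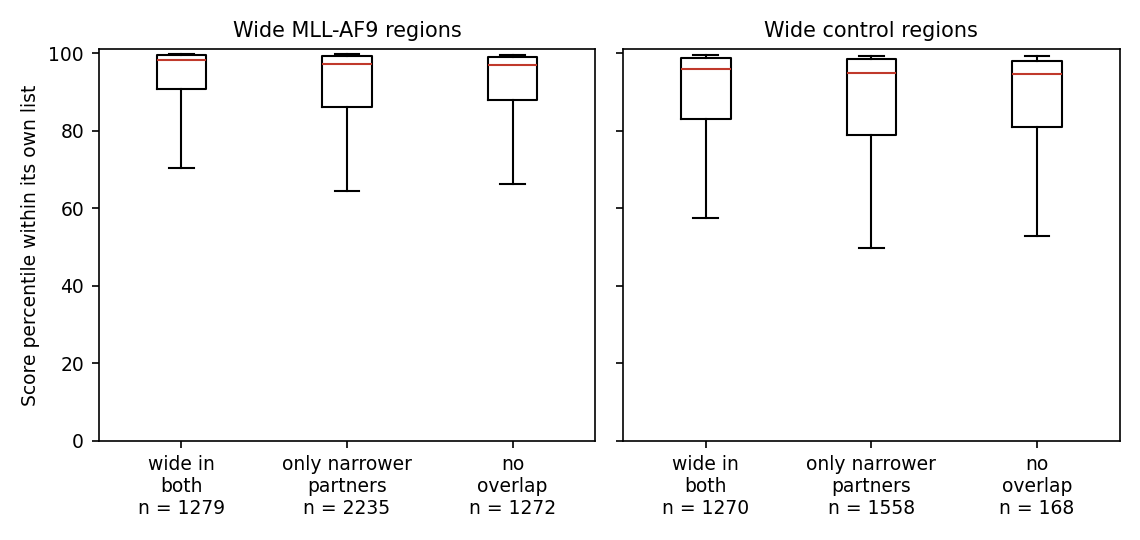
Percentile of the authors' score within its own list (vertical axis) for wide MLL-AF9 regions (left) and wide control regions (right), split into regions wide in both lists, those with only narrower partners and those with no overlap (horizontal axis, with n); boxes span the 25th to 75th percentile, red lines are medians and whiskers reach the 10th and 90th percentile. The boxes of the 3 classes overlap widely, with medians from 97.0 to 98.2 in MLL-AF9 and from 94.5 to 95.8 in control.

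A high score in one library did not always go with a high score in the other. Among the 1195 pairs, both scores were in the top 10% of their lists in 636 (53.2%), the MLL-AF9 score alone in 273, the control score alone in 156 and neither in 130. Since 76.5% of all partners and 66.5% of all members were in the top 10%, many pairs would have both even if the scores were unrelated. The scores had a Spearman correlation of 0.21 over these pairs, again a description of regions from the same 2 libraries. Pairs with both scores in the top 10% and the 133 pairs with a score below a list median were alike in position: a median of 94.3% and 92.4% of the control region was covered, and both ends were within 100 bp in 25.8% and 24.8%.

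Of the 4 top-scoring members in each list, 1 was the same, though some others also scored near the top of the other list. The member chr19:6402753-6406022 was among the 4 highest in each, at a score of 3402 and a width of 3900 bp in MLL-AF9, and 2845 and 3270 bp in control. In MLL-AF9 the next partners were those of chr10:92737279-92740617 (score 3042, width 3322 bp, against 3339 bp in control), chr15:73581271-73582876 (score 2916, 3245 bp, against 1606 bp) and chr6:134057019-134058274 (score 2894, 3911 bp, against 1256 bp). In the same order, their control scores stood at percentiles 99.96, 99.1 and 90.3 of the control list. The chromosome 10 member had nearly equal ends, which differed by 32 bp at the start and 15 bp at the end. The chromosome 6 member showed the largest excess of MLL-AF9 width over control among the 1195 pairs, 2655 bp.

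In control the 4 highest scores were those of chr13:55102664-55108336 (3609) and chr15:78394830-78398732 (2886), the chromosome 19 member (2845) and chr12:85529646-85533088 (2740). The last of these was 3443 bp wide in control, and its wide MLL-AF9 partner of 1480 bp lay inside it. That partner scored 896 (percentile 98.7 of the MLL-AF9 list), the partner of the chromosome 15 member 2773 (99.995), and those of the chromosome 13 member at most 1136 (99.5). The largest loss of width in MLL-AF9, named after its value was seen, was at chr12:103930903-103934451, where an MLL-AF9 region of 1211 bp lay inside a control region of 3549 bp. That control region lay under 4 MLL-AF9 regions in all, the other 3 of them narrower than 1200 bp.

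In the weakest overlaps the wide stretches met only at an edge. The 4 members with the fewest shared bases were chr19:41441583-41443120, chr5:123211825-123213142, chr2:3672609-3673925 and chr13:53071076-53072320, with 35, 36, 49 and 55 bp. In each, the wide MLL-AF9 region touched 1 edge of the control region, and at least 1 narrower MLL-AF9 region also lay over the member. Within its own list, the MLL-AF9 score at the first stood at percentile 99.5 and the control score at percentile 25.3.

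Members lay in neighbourhoods rich in 5hmC regions. Within 10000 bp of a member's centre there was a median of 9 MLL-AF9 regions that did not overlap it (25th to 75th percentile 7 to 11), against 8 (5 to 10) for wide control regions with only narrower partners, 5 (2 to 8) for those with no overlap and 6 (3 to 9) for narrower control regions. Of other control regions there was a median of 5 around members (3 to 7), 4 around each of the other wide classes and 2 around narrower regions. The ranges overlap widely. Numbers of MLL-AF9 and of control neighbours are not comparable with each other, as the MLL-AF9 list holds 166014 autosomal regions and the control list 51145. Between control widths of 1200 and 1500 bp the mean number of MLL-AF9 neighbours was 8.96 around members, 7.45 around regions with only narrower partners and 5.26 around regions with no overlap, and from 1500 to under 2000 bp it was 8.95, 8.05 and 4.83. From 2000 bp upward it was 9.04, 7.36 and 7.90, the last over 10 regions. The mean number of control neighbours was 5.27, 4.45 and 3.97 in the same classes from 1200 to under 1500 bp, but 5.23 around both members and regions with only narrower partners and 4.05 around regions with no overlap from 1500 to under 2000 bp, and 5.80, 5.24 and 6.90 from 2000 bp upward, so that order did not hold at all widths. A local density of MLL-AF9 calls also raises the room for any overlap, and its part in the choice of the members was not tested.

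Many wide control regions lay near another one, members among them. The gap from a member to the nearest other wide control region had a median of 10688 bp and a 10th percentile of 435 bp, so some nearly adjoined. Whether wide regions lie closer together than control regions at large was not tested. Another wide control region lay within 10000 bp of 623 members (49.1%, interval 46.3 to 51.8), against 41.3% (38.9 to 43.7) of wide control regions with only narrower partners and 31.5% (25.0 to 38.9) of those with no overlap. Another member lay within that distance of 415 members (32.7%). These 415 formed 173 runs, of which 132 held 2 members, 25 held 3, 8 held 4, 4 held 5 and 4 held 6.

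The 4 runs of 6, picked as the longest, each spanned under 31 kb. They lay at chr13:114385494-114408115, chr2:3648142-3673925, chr2:167572704-167602718 and chr5:124456013-124480304. The chromosome 13 run held 14 MLL-AF9 and 15 control regions in 22.6 kb, and its 6 members were 1355 to 2953 bp wide in control. The chromosome 5 run held 17 MLL-AF9 and 16 control regions in 24.3 kb, with members of 1213 to 2357 bp.

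On the scale of 1 Mb, members were found in 531 of 1715 autosomal bins that held a control region, and 10 bins with at least 10 members held 122 of them. The 2 richest bins adjoined each other on chromosome 10. From 79 to 80 Mb there were 21 members among 287 MLL-AF9 and 164 control regions, and from 80 to 81 Mb there were 16 among 316 and 172. Next came adjoining bins on chromosome 2, from 166 to 167 Mb and from 167 to 168 Mb, with 12 members each. Over the bins the number of members and that of control regions had a Spearman correlation of 0.65, which describes bins of 1 library that share its local density of regions.

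Each autosome held members, at unlike rates. Chromosome 10 had the most, 113, or 34.0 per 1000 control regions, followed by chromosome 8 at 32.4 and chromosome 19 at 30.1. Chromosome 3 had the fewest, 28, or 12.5 per 1000, followed by chromosome 9 at 17.2 and chromosome 7 at 18.3. As a share of wide control regions, members ranged between 33.5% on chromosome 7 (57 of 170, interval 26.9 to 40.9) and 51.1% on chromosome 13 (69 of 135, 42.8 to 59.4). Chromosome 10 held 235 wide control regions, of which 48.1% were members.

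**Figure D5:**
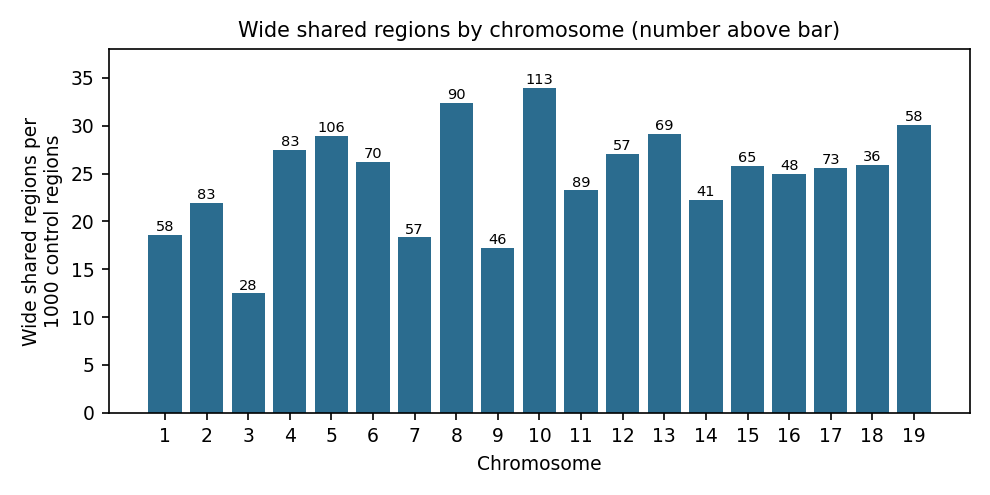
Wide shared regions per 1000 control regions (vertical axis) on each autosome (horizontal axis), with the number of wide shared regions above each bar. Chromosome 10 is highest at 34.0 and chromosome 3 lowest at 12.5.

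Genes, CpG content and DNA sequence at the members were not analysed here, because the annotation and sequence tables used are of build GRCm38 and the regions are in mm9.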

How the data were processed

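2 kinds of deposited values were used. The 5hmC files list regions for 1 MLL-AF9 and 1 control library, each with a score that the authors gave without stating its meaning. For 5hmC enrichment the series' design text gives selective chemical labelling, but an antibody to methylated cytidine stands in the labels. The submitters' processing notes name build mm9, MACS 1.4, Bowtie 0.17.2, Cufflinks 1.3.0 and TopHat 1.4.1, without role or setting. The deposited RNA table gives a pooled value for each group, whose unit was inferred to be FPKM. It served only to describe cell makeup. The control input library was not analysed here, and reads per library are unknown.

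Regions of 1 list do not overlap each other. Overlaps of at least 1 bp between regions at least 1200 bp wide were found in Python 3.11.15 with pandas 2.3.3, scipy 1.17.1 and numpy 2.4.6, and checked against bedtools 2.31.1 and on simulated data. Plots used matplotlib 3.10.9. Neighbours were counted by their centres within 10000 bp. Runs allow gaps of up to 10000 bp. Named regions follow a rule on shared bases, scores, partners and nearness to the width minimum. Ties were kept for the number of partners but not for nearness to the minimum. Runs and the largest width loss were added after values were seen. The members, gene lists and rules were chosen with earlier results of these data known.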

Additional observations from a re-analysis of the deposited data

Results flagged for a closer look

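The MLL-AF9 list holds 19 regions on chromosome Y, 3 of them wide, and the control list holds 0. It was looked at because it is a signal outside the autosomes on which the wide shared regions were chosen. On chromosome X there are 819 MLL-AF9 regions (0.491% of the list) and 141 control regions (0.275%), with 5 wide regions in MLL-AF9, 7 wide in control and 1 wide in both. The labels do not give the sex of the mice.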

How the results depend on the processing

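The median part of a member covered by wide MLL-AF9 regions, 93.8% (interval of the median 92.8 to 94.6), stayed within that interval under all 6 alternatives, and the share with exactly 1 wide partner stayed within its interval under 5, being 100% by construction when an overlap of at least 50% of both regions was asked. That share is held high by the rule under each setting, because partners do not overlap each other. The covered part is also favoured by the rule throughout, because a width minimum applies to both regions and 1 alternative asks for an overlap of at least 50%. The number of members depended on the definition: with a width minimum of 1000 bp it was 2651 (47.1% of wide control regions), with 1500 bp it was 432 (34.7%), and with regions 200 bp or less apart merged it was 2934 (58.3%). It was 1151 (38.4%) with the 50% overlap, 1152 (38.5%) with the MLL-AF9 list reduced to its top-scoring regions in the number of the control list, and 1131 (41.5%) with the top-scoring 50% of each list. No paired analysis was possible because each group has 1 5hmC library. Depth per library is unknown, so a narrower or missing call in one list may lie below what its depth could show.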
